A study of Mus musculus with 33 samples.

Results

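Integrins and laminins form the contact between a cell and the matrix around it, and their genes were followed through 3 kinds of cultured mouse cell. Every symbol of the deposited count table that names an integrin alpha chain, an integrin beta chain or a laminin chain was taken, which gave 37 of 17982 genes: 18 integrin alpha, 8 integrin beta and 11 laminin genes. Of these, 33 passed the filter on low counts and were tested, and 4 (Itgad, Itgae, Itgb6 and Lamc3) did not. Binding proteins and look-alike symbols such as Itgb1bp1, Itgbl1 and Itgb2l are not subunits and were not taken. The fibroblasts came from tail tips of Col2.3GFP mice and were expanded in culture. In these mice a fragment of the type I collagen promoter drives green fluorescent protein, so that the reporter marks osteoblast-lineage cells. The induced osteoblasts (iOB) were Col2.3GFP fibroblasts transduced with lentivirus carrying transcription factor genes, which was washed out after 24 hours, and given osteogenic medium from day 5. The calvarial-derived osteoblasts (calvarial-OB) were labelled as calvarial progenitor cells in osteoblast differentiation, with no genotype given, and as a second dataset. Any effect of that dataset and any effect of the cell type cannot be told apart. A sorted fraction, the iOB cells positive for the reporter (iOB GFP+), enters through the authors' deposited comparison with fibroblasts. The study also holds GFP-positive cells sorted from bone chips and DNA methylation libraries, 33 samples in all, which were not used here. The labels give no strain beyond Col2.3GFP, no age, no day of harvest, and no group with virus alone or medium alone, so the effects of factors, virus, medium and time cannot be told apart.

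An integrin is a pair of 1 alpha and 1 beta chain that spans the membrane, holds a matrix or cell-surface ligand outside and links to the actin skeleton inside. The pairing sets the ligand: chains that carry an inserted domain and pair with beta1 bind collagens, another set with the alpha5, alpha8 and alphaV chains reads the RGD sequence of fibronectin, vitronectin and bone sialoprotein, a further set binds laminins, and the beta2 and beta7 integrins belong to leukocytes. Laminins are trimers of an alpha, a beta and a gamma chain that build the basement membrane around muscle, fat, nerve, vessel and epithelial cells. Osteoblasts are known to attach to the collagen and RGD proteins of bone matrix mainly through beta1, beta3 and beta5 pairs.

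The RNA libraries, 3 per group and poly-A selected, held 5646299 to 15023771 counts each. Libraries of 1 group correlated at 0.969 to 0.994 across genes, with calvarial-OB replicate 1 the least like its group (0.969 and 0.972). The ribosomal precursor Rn45s took 2.27% to 10.9% of counts. The summed level of 9 osteoblast markers was 17500 to 19000 CPM (the usual depth-scaled count, here on TMM-scaled library sizes) in fibroblasts, 30900 to 36800 CPM in iOB and 37400 to 65600 CPM in calvarial-OB, with Col1a1 making up most of the sum (17404 to 18865 CPM in fibroblasts). All 9 were higher in both osteoblast groups than in fibroblasts, with median log2 fold changes of 5.64 in iOB and 5.78 in calvarial-OB. Of all tested genes, 22.7% were higher in iOB and 28.4% in calvarial-OB. Set against calvarial-OB, 3 of the 9 were higher in iOB and 3 lower (24.7% and 24.1% of all tested genes). Mean levels in iOB and calvarial-OB were 605 and 56.9 CPM for Sp7, and 2.96 and 59.8 CPM for Ifitm5. The 9 include the transcription factor genes Runx2 and Sp7, and the part of the virus in their counts was not tested. Of 5 adipocyte markers, 4 were tested. In iOB 3 were higher and 1 lower than in fibroblasts (22.7% and 20.6% of all tested genes), and in calvarial-OB 4 were higher (28.4%). Among these markers Adipoq was at 0 in the 3 fibroblast libraries, 12.1, 14.1 and 12.3 CPM in iOB and 51.1, 54.2 and 81.0 CPM in calvarial-OB. Fabp4 was at 18.9, 24.9 and 30.9 CPM in fibroblasts, 8.92, 12.8 and 10.6 CPM in iOB and 247, 209 and 406 CPM in calvarial-OB. Their part in the results was not tested. The labels do not say whether replicates came from separate cultures or animals, so p-values measure the spread between these libraries, which may be technical. Levels are given as CPM per library in the order of replicates 1 to 3, differences as log2 fold changes ± SE, and a gene was called at an edgeR quasi-likelihood adjusted p below 0.05 over all 13438 genes tested. CPM do not correct for gene length, so levels of different genes are not compared. In such bulk cultures, fewer cells of a type and less RNA per cell cannot be told apart.

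Against fibroblasts, 14 of the 33 tested genes were higher in iOB and 5 were lower, where 22.7% of all tested genes were higher, 20.6% lower and 43.3% called either way. In calvarial-OB 14 were higher and 12 lower, where 28.4% of all tested genes were higher, 27.4% lower and 55.8% called either way. The members' shares called were 57.6% and 78.8%, above the share over all genes in both comparisons. Their median log2 fold changes were 0.61 in iOB and -0.24 in calvarial-OB, beside -0.04 and 0.02 over all tested genes. Libraries did not overlap between iOB and fibroblasts for 27 of the 33 (63% of all tested genes) and between calvarial-OB and fibroblasts for 29 (60.5% of all tested genes). The 2 comparisons share the fibroblast libraries.

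**Figure D1:**
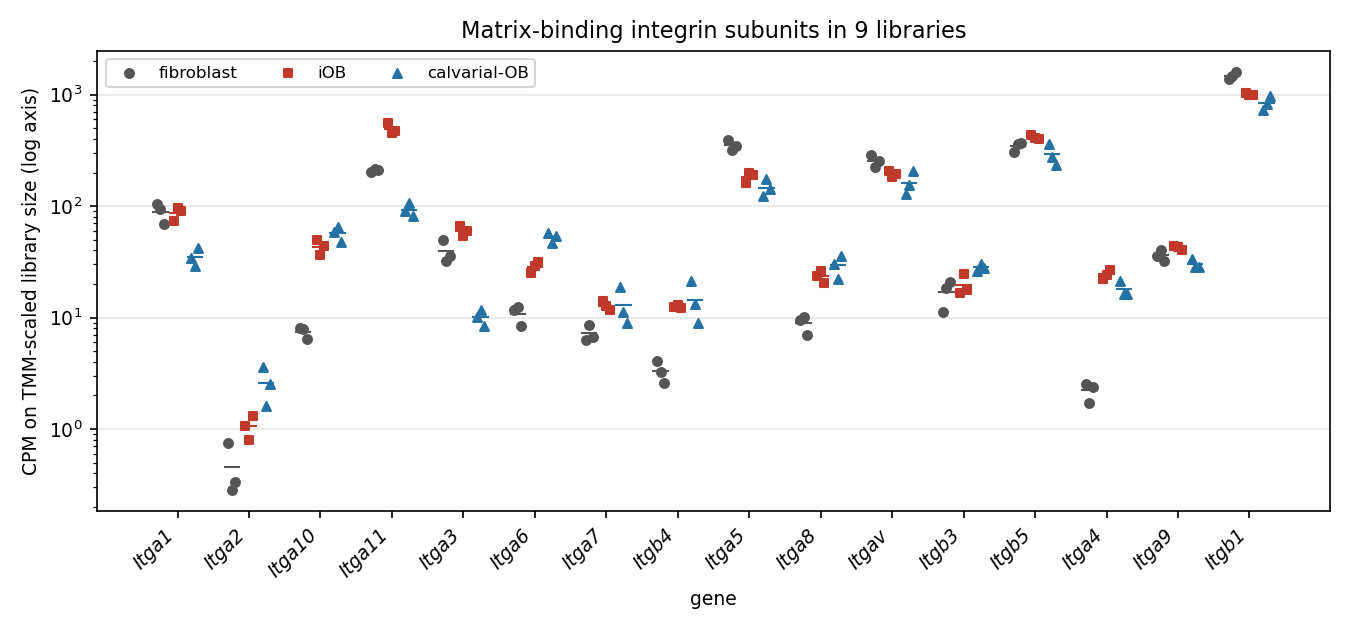
Levels of 16 matrix-binding integrin subunits in each library, as CPM on a log axis; points are libraries, short lines are group means, and colours and shapes mark fibroblast, iOB and calvarial-OB (3 libraries each). Itga10, Itga4, Itga6 and Itgb4 lie above the fibroblast libraries in both osteoblast groups, whereas Itga11 lies above them in iOB (453 to 558 CPM) and below them in calvarial-OB (81.0 to 107 CPM).

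Collagen receptors changed chain by chain, and in calvarial-OB the 4 alpha chains split evenly into 2 higher and 2 lower. There 28.4% of all tested genes were higher and 27.4% lower. Itga10 encodes the alpha10 chain, a collagen receptor chain best known from cartilage. Its level was 8.01, 7.93 and 6.39 CPM in the fibroblast libraries, 49.3, 36.2 and 44.2 CPM in iOB and 59.0, 65.6 and 47.5 CPM in calvarial-OB. Neither osteoblast group overlapped with fibroblasts, while the 2 osteoblast groups overlapped each other. Itga10 rose by 2.54 ± 0.17 in iOB (edgeR adjusted p = 5.7e-07) and by 2.95 ± 0.17 in calvarial-OB (edgeR adjusted p = 9.1e-08). Itga11, the chain through which fibroblasts and other mesenchymal cells hold fibrillar collagen, behaved differently. It stood at 204, 215 and 212 CPM in fibroblasts, 558, 453 and 470 CPM in iOB, and 90.1, 107 and 81.0 CPM in calvarial-OB. All 3 iOB libraries were above and all 3 calvarial-OB libraries below every fibroblast library. It rose by 1.23 ± 0.12 in iOB (edgeR adjusted p = 8.9e-06) and fell by 1.18 ± 0.12 in calvarial-OB (edgeR adjusted p = 7.9e-06), and iOB exceeded calvarial-OB by 2.41 ± 0.13 (edgeR adjusted p = 1.1e-07).

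Itga1, a collagen receptor chain of mesenchymal and smooth muscle cells, was at 104, 93.8 and 68.8 CPM in fibroblasts, 73.3, 95.3 and 90.0 CPM in iOB and 34.1, 29.1 and 41.9 CPM in calvarial-OB. The iOB libraries lay within the fibroblast range and the calvarial-OB libraries below it. Itga1 fell by 1.33 ± 0.18 in calvarial-OB (edgeR adjusted p = 5.1e-05), and in iOB it stood at -0.04 ± 0.17 (edgeR adjusted p = 0.88). Its neighbour on the chromosome, Itga2, the platelet and epithelial collagen receptor chain, was low throughout, at 0.283 to 0.754 CPM in fibroblasts, 0.803 to 1.31 CPM in iOB and 1.59 to 3.63 CPM in calvarial-OB. Itga2 rose by 2.43 ± 0.45 in calvarial-OB (edgeR adjusted p = 6.5e-04) and showed a change of 1.12 ± 0.53 in iOB (edgeR adjusted p = 0.11).

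Between iOB and calvarial-OB the Itga10 and Itga2 calls were narrow. Itga10 was lower in iOB (-0.41 ± 0.15 on the log2 scale; edgeR adjusted p = 0.044, 0.013 to 0.19 over the alternatives), and lost its call without iOB replicate 2 (adjusted p = 0.19) or 3 (0.092), without calvarial-OB replicate 1 (0.090) or 2 (0.18), with no filter, with DESeq2 and in a fit of the 2 groups alone. Itga2 was lower in iOB by -1.31 ± 0.42 (edgeR adjusted p = 0.022, 0.014 to 0.097 over the alternatives) and lost its call with DESeq2 (0.064) and without iOB replicate 1 (0.059) or 2 (0.097) or calvarial-OB replicate 1 (0.062) or 3 (0.051).

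The stretch before the start of Itga10 and Itga11 is shown because both genes rose in iOB but parted in calvarial-OB. The 250 bases before each RefSeq start (GRCm38.p6) are printed 5′ to 3′, with matches to TGNGGT in capitals, searched on both strands. This string is looser than the core that Runx factors bind, TGYGGT, where Y is C or T and N is any base.
Itga10 (chr3:96645334-96645583, plus strand): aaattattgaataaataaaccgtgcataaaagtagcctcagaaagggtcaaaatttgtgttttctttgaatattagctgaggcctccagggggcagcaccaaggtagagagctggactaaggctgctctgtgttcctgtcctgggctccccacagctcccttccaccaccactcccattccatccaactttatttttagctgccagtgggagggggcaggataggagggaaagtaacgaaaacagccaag
Itga11 (chr9:62677605-62677854, plus strand): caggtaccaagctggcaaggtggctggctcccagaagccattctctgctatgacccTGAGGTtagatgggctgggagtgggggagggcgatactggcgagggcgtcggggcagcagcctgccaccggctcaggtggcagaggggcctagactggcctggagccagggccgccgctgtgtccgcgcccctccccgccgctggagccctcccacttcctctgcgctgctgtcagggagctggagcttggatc
Itga10 had 0 matches and Itga11 had 1, at 194 bases before the start. That match, TGAGGT, has A where the Runx core has C or T. Of 32851 such windows in the RefSeq table, 40.1% held at least 1 match, so a match is a description of the letters and not a site.

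Of 7 tested RGD-binding chains, 1 was higher (Itga8) and 1 lower (Itga5) in iOB; their median log2 fold change was 0.23. In calvarial-OB 2 were higher (Itga8 and Itgb3) and 2 lower (Itga5 and Itgav), with a median of -0.24. The shares called, 28.6% and 57.1%, stood beside 43.3% and 55.8% of all tested genes. Itga5, which pairs with beta1 as the main fibronectin receptor, was at 388, 321 and 350 CPM in fibroblasts, 162, 199 and 189 CPM in iOB and 122, 174 and 143 CPM in calvarial-OB. Every osteoblast library was below every fibroblast library, with overlap between iOB and calvarial-OB. It fell by 0.94 ± 0.14 in iOB (edgeR adjusted p = 1.9e-04) and by 1.27 ± 0.14 in calvarial-OB (edgeR adjusted p = 1.1e-05). The fibronectin gene Fn1 fell as well, from 17944 ± 1144 CPM (mean ± SD, n = 3) to 4456 ± 246 CPM in iOB and 3898 ± 271 CPM in calvarial-OB. Itga5 was not called between the 2 osteoblast groups (log2 fold change 0.33 ± 0.14, edgeR adjusted p = 0.069, 0.013 to 0.21 over the alternatives), but was with no filter (0.048), with DESeq2 (0.044) and without calvarial-OB replicate 2 (0.013).

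Itgb1, the beta chain shared by most matrix integrins, was at 1374, 1459 and 1607 CPM in fibroblasts, 1032, 990 and 996 CPM in iOB and 735, 822 and 981 CPM in calvarial-OB. The 3 groups did not overlap, in descending order from fibroblast through iOB to calvarial-OB. It fell by 0.56 ± 0.12 in iOB (edgeR adjusted p = 0.0023) and by 0.81 ± 0.12 in calvarial-OB (edgeR adjusted p = 1.1e-04). The step between iOB and calvarial-OB, 0.25 ± 0.12, was not called (edgeR adjusted p = 0.097, 0.0073 to 0.23 over the alternatives) except without calvarial-OB replicate 3 (0.39, adjusted p = 0.0073).

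Itgav, the alphaV chain of the vitronectin receptors, was at 288, 224 and 254 CPM in fibroblasts, 207, 184 and 192 CPM in iOB and 128, 154 and 206 CPM in calvarial-OB. It fell by 0.65 ± 0.16 in calvarial-OB (edgeR adjusted p = 0.0042). In iOB its log2 fold change of -0.40 ± 0.16 was not called (edgeR adjusted p = 0.063, 0.012 to 0.19 over the alternatives), but was in a fit of these 2 groups alone (0.012). Between the osteoblast groups it was called only without calvarial-OB replicate 3 (adjusted p = 0.0086). Itgb5, an alphaV partner of connective tissue cells, was at 306, 360 and 365 CPM in fibroblasts, 434, 408 and 399 CPM in iOB and 364, 277 and 234 CPM in calvarial-OB. Against fibroblasts it was called in neither group (0.27 ± 0.15 in iOB, edgeR adjusted p = 0.16; -0.24 ± 0.15 in calvarial-OB, edgeR adjusted p = 0.19), except in the 2-group fit for iOB (0.011) and without calvarial-OB replicate 1 (-0.44, 0.0046). It was higher in iOB than in calvarial-OB by 0.51 ± 0.15 (edgeR adjusted p = 0.014), though not when calvarial-OB replicate 2 was left out (0.051).

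Itgb3 pairs with alphaV in bone cells and with alphaIIb in platelets. It was at 11.1, 18.3 and 21.0 CPM in fibroblasts, 16.6, 24.4 and 17.5 CPM in iOB and 26.4, 30.3 and 27.8 CPM in calvarial-OB. The calvarial-OB libraries were above all others, and Itgb3 rose there by 0.75 ± 0.22 (edgeR adjusted p = 0.011). In iOB the log2 fold change was 0.23 ± 0.22 (edgeR adjusted p = 0.43). Between iOB and calvarial-OB it was -0.52 ± 0.22 (edgeR adjusted p = 0.066, 0.031 to 0.20 over the alternatives), called with upper-quartile normalization (0.037), in the 2-group fit (0.033), when replicate number was a block (0.032) and without iOB replicate 2 (0.031). Osteoclasts, which also carry Itgb3, had 7 markers at a summed 112 to 162 CPM in fibroblasts, 242 to 257 CPM in iOB and 291 to 322 CPM in calvarial-OB, mostly from Ctsk. Their part in the Itgb3 values was not tested.

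Itga8, a beta1 partner that binds nephronectin and other RGD proteins, was at 9.52, 10.2 and 6.97 CPM in fibroblasts, 23.7, 26.4 and 20.5 CPM in iOB and 30.5, 22.3 and 35.4 CPM in calvarial-OB. Every osteoblast library exceeded every fibroblast library. It rose by 1.42 ± 0.20 in iOB (edgeR adjusted p = 1.5e-04) and by 1.75 ± 0.20 in calvarial-OB (edgeR adjusted p = 1.6e-05). Between the osteoblast groups it was called only without calvarial-OB replicate 2 (log2 fold change -0.47, adjusted p = 0.048). Its ligand gene Npnt rose by 3.06 ± 0.26 in iOB and by 3.55 ± 0.26 in calvarial-OB. Itgb8, a latent TGF-beta receptor chain, and Itga2b, the platelet alpha chain, were low (1.49 to 3.78 CPM and 2.27 to 6.66 CPM over the 9 libraries) and were not called in any comparison, except Itgb8 without fibroblast replicate 1 (adjusted p = 0.025 for iOB and 0.027 for calvarial-OB) and Itga2b in calvarial-OB without its replicate 1 (0.031).

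Laminin-binding chains were higher than in fibroblasts in 4 of 4 cases in iOB and 3 of 4 in calvarial-OB, the exception being Itga3. The shares of all tested genes that were higher were 22.7% and 28.4%. Itga6, which with beta1 or beta4 binds most laminins, was at 11.6, 12.5 and 8.46 CPM in fibroblasts, 25.0, 29.1 and 31.4 CPM in iOB and 57.8, 46.9 and 53.7 CPM in calvarial-OB. The 3 groups were in this order with no overlap. It rose by 1.41 ± 0.16 in iOB (edgeR adjusted p = 3.0e-05) and by 2.30 ± 0.16 in calvarial-OB (edgeR adjusted p = 3.4e-07), and was lower in iOB than in calvarial-OB (-0.89 ± 0.15 on the log2 scale; edgeR adjusted p = 5.1e-04). Itgb4, its partner in epithelial hemidesmosomes and in Schwann cells, was at 4.05, 3.26 and 2.57 CPM in fibroblasts, 12.6, 13.1 and 12.3 CPM in iOB and 21.3, 13.1 and 8.92 CPM in calvarial-OB. It rose by 1.94 ± 0.31 in iOB (edgeR adjusted p = 3.6e-04) and by 2.11 ± 0.31 in calvarial-OB (edgeR adjusted p = 1.0e-04).

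Markers of Schwann cells, keratinocytes and endothelial cells were read beside Itga6 and Itgb4. The 5 Schwann cell markers summed to 13.9 to 17.5 CPM in fibroblasts, 32.1 to 35.8 CPM in iOB and 72.7 to 150 CPM in calvarial-OB, none of them at 0 in any group, and their part in these values was not tested. The 6 measured keratinocyte markers summed to 5.93 to 9.68 CPM over all libraries, with Krt1 and Cdh1 at 0 in fibroblasts, Krt5 and Krt1 at 0 in iOB and Krt5 at 0 in calvarial-OB. The 7 measured endothelial markers summed to 3.27 to 14.3 CPM over all libraries, with Emcn at 0 in iOB.

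Itga3, which binds the laminins that contain alpha3 or alpha5 chains, separated the 2 osteoblast groups. It was at 49.3, 32.3 and 35.9 CPM in fibroblasts, 66.8, 53.9 and 59.9 CPM in iOB and 10.1, 11.8 and 8.40 CPM in calvarial-OB, with no overlap between any groups. It rose by 0.61 ± 0.17 in iOB (edgeR adjusted p = 0.011) and fell by 1.98 ± 0.18 in calvarial-OB (edgeR adjusted p = 2.9e-06), a difference between them of 2.59 ± 0.19 (edgeR adjusted p = 9.1e-07). Itga7, the laminin receptor chain of muscle, was at 6.31, 8.64 and 6.72 CPM in fibroblasts, 14.1, 12.7 and 11.6 CPM in iOB and 18.8, 11.3 and 8.92 CPM in calvarial-OB. It rose by 0.84 ± 0.26 in each osteoblast group (edgeR adjusted p = 0.021 for iOB and 0.015 for calvarial-OB). In iOB this call was lost without iOB replicate 1 (adjusted p = 0.067) or 2 (0.053) or fibroblast replicate 1 (0.073) or 3 (0.069), and in calvarial-OB without fibroblast replicate 1 (0.056) or 3 (0.056). Smooth muscle markers, 4 in number, summed to 1820 to 2540 CPM in fibroblasts, 1370 to 1580 CPM in iOB and 1190 to 2110 CPM in calvarial-OB, and 4 skeletal muscle markers to 6.35 to 13.6 CPM over all libraries.

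Itga4 binds the cell adhesion molecule VCAM1 and a splice segment of fibronectin, and is carried by many leukocytes and some mesenchymal cells. The part of leukocyte RNA in its values was not tested. Among the chains not listed here as leukocyte integrins, Itga4 rose most in iOB. It was at 2.54, 1.70 and 2.41 CPM in fibroblasts, 22.2, 24.2 and 26.7 CPM in iOB and 21.1, 16.4 and 16.3 CPM in calvarial-OB. Both osteoblast groups lay far above the fibroblast libraries. It rose by 3.42 ± 0.19 in iOB (edgeR adjusted p = 1.4e-07) and by 2.97 ± 0.19 in calvarial-OB (edgeR adjusted p = 1.9e-07). The excess in iOB over calvarial-OB, 0.45 ± 0.16 (edgeR adjusted p = 0.033, 0.0038 to 0.12 over the alternatives), lost its call with upper-quartile normalization (0.070), with DESeq2 (0.054) and without iOB replicate 2 (0.080) or 3 (0.12) or calvarial-OB replicate 2 (0.092) or 3 (0.086). Itga9, its closest relative, was at 35.7, 40.5 and 32.4 CPM in fibroblasts, 44.0, 43.2 and 40.2 CPM in iOB and 33.8, 28.7 and 28.3 CPM in calvarial-OB. Against fibroblasts it was not called (0.24 ± 0.12 in iOB, edgeR adjusted p = 0.14; -0.26 ± 0.12 in calvarial-OB, edgeR adjusted p = 0.089), except in the 2-group fit for iOB (0.029) and without calvarial-OB replicate 1 (0.021). It was higher in iOB than in calvarial-OB by 0.49 ± 0.12 (edgeR adjusted p = 0.0055).

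Itgam, Itgb2 and Itgax, chains of leukocyte integrins, showed the largest increases of the 33 tested genes in both osteoblast groups. Of 7 listed genes, 5 were tested: all 5 were higher in iOB and 4 in calvarial-OB, where 22.7% and 28.4% of all tested genes were higher. Itgam (CD11b), the alpha chain of macrophages, neutrophils and related cells, was at 2.64, 1.84 and 1.16 CPM in fibroblasts, 46.3, 77.3 and 80.2 CPM in iOB and 76.6, 40.6 and 53.2 CPM in calvarial-OB. Its partner Itgb2 (CD18), the beta chain of blood-derived cells, was at 2.92, 0.991 and 1.08 CPM in fibroblasts, 55.0, 86.5 and 83.8 CPM in iOB and 82.1, 44.4 and 51.3 CPM in calvarial-OB. In both genes replicate 1 was the lowest iOB library and the highest calvarial-OB library, and the osteoblast groups overlapped each other but not the fibroblasts.

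Itgam rose by 5.18 ± 0.35 in iOB (edgeR adjusted p = 5.3e-07) and by 4.92 ± 0.35 in calvarial-OB (edgeR adjusted p = 3.7e-07). Itgb2 rose by 5.45 ± 0.37 in iOB (edgeR adjusted p = 5.7e-07) and by 5.10 ± 0.37 in calvarial-OB (edgeR adjusted p = 4.4e-07), or by 6.14 and 5.80 without fibroblast replicate 1. Between the osteoblast groups neither was called (0.26 ± 0.25 for Itgam, edgeR adjusted p = 0.42; 0.35 ± 0.26 for Itgb2, edgeR adjusted p = 0.30). Without calvarial-OB replicate 1 both were called higher in iOB (0.57, adjusted p = 0.046, and 0.69, adjusted p = 0.017).

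Against fibroblasts, macrophage markers moved with these genes. All 14 measured markers, among them Csf1r, Ptprc and C1qa, were called higher in both osteoblast groups than in fibroblasts (22.7% of all tested genes in iOB and 28.4% in calvarial-OB). Their summed level was 41.2 to 85.8 CPM in fibroblasts, 2213 to 3574 CPM in iOB and 3385 to 6201 CPM in calvarial-OB, and none of the 14 was at 0 in any group. In the sum too, replicate 1 was the lowest iOB library and the highest calvarial-OB library. Between iOB and calvarial-OB, 8 of the 14 markers were called lower in iOB and 0 higher (median log2 fold change -1.04). Of all tested genes, 24.1% were lower and 24.7% higher there. Itgam and Itgb2 were not called in that comparison, and neither were 6 of the 14 markers. Whether the markers and these 2 genes moved alike in it was not tested. Neutrophil markers, 4 measured of 8 listed, summed to at most 1.51 CPM in any library, with Mpo and Ngp at 0 in fibroblasts, Camp at 0 in iOB and Ngp at 0 in calvarial-OB. The 3 measured T and NK cell markers summed to at most 5.57 CPM, mostly Cd4 where highest, with Cd4 and Cd2 at 0 in fibroblasts, and the 3 measured B cell markers to at most 0.754 CPM. The part of macrophage RNA in the leukocyte integrin values was not tested.

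**Figure D2:**
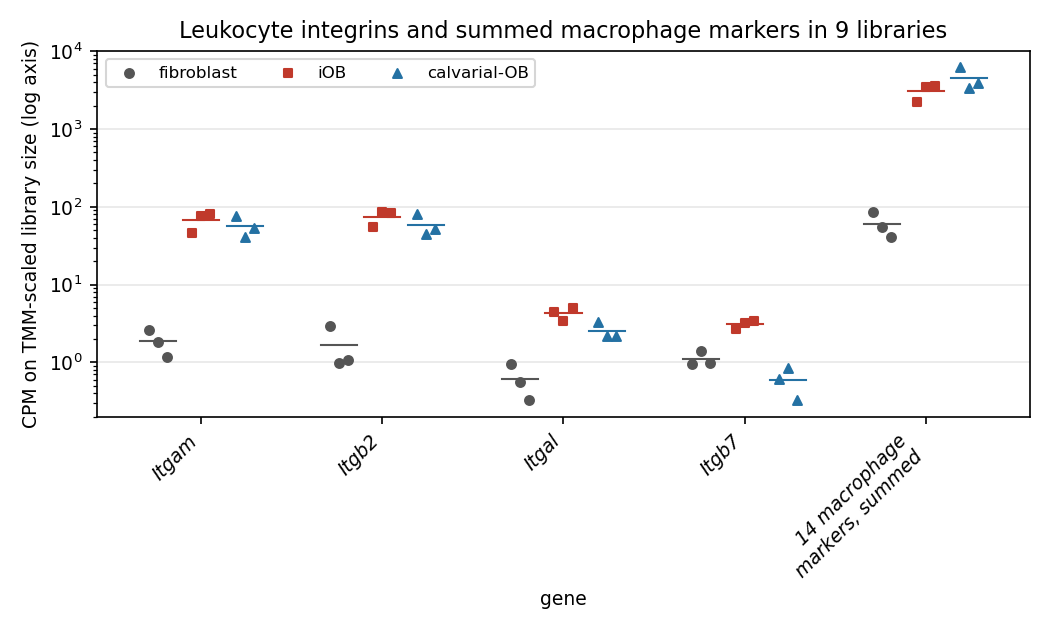
Levels of 4 leukocyte integrin genes and the sum of 14 macrophage markers in each library, as CPM on a log axis; points are libraries, short lines group means, colours and shapes the 3 groups. Itgam, Itgb2, Itgal and the marker sum are higher in every iOB and calvarial-OB library than in any fibroblast library, while Itgb7 is highest in iOB (2.72 to 3.44 CPM) and lowest in calvarial-OB (0.326 to 0.858 CPM).

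Itgal (CD11a), the alpha chain of lymphocytes and monocytes, was at 0.942, 0.566 and 0.332 CPM in fibroblasts, 4.39, 3.44 and 5.07 CPM in iOB and 3.27, 2.21 and 2.21 CPM in calvarial-OB. It rose by 2.78 ± 0.39 in iOB (edgeR adjusted p = 1.2e-04) and by 2.03 ± 0.40 in calvarial-OB (edgeR adjusted p = 9.3e-04), and between them it was called only without calvarial-OB replicate 1 (0.98, adjusted p = 0.023; edgeR adjusted p = 0.071 with all libraries). Itgb7, the partner of alpha4 and alphaE in lymphocytes and mast cells, was at 0.942, 1.42 and 0.996 CPM in fibroblasts, 2.72, 3.21 and 3.44 CPM in iOB and 0.605, 0.858 and 0.326 CPM in calvarial-OB. It rose by 1.51 ± 0.34 in iOB (edgeR adjusted p = 0.0039), was not called in calvarial-OB (-0.96 ± 0.42, edgeR adjusted p = 0.069; -1.29 and 0.037 without calvarial-OB replicate 2), and was higher in iOB than in calvarial-OB by 2.47 ± 0.38 (edgeR adjusted p = 2.4e-04). It was the 1 leukocyte chain tested that was not called in calvarial-OB, where all 14 macrophage markers were. The 4 measured mast cell markers summed to 0.283 to 0.848 CPM in fibroblasts, 3.11 to 3.78 CPM in iOB and 0.613 to 1.09 CPM in calvarial-OB, mostly Kit in iOB, with Cpa3 at 0 in fibroblasts and iOB and Cma1 at 0 in calvarial-OB. Their part in the Itgb7 values was not tested.

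Itgax (CD11c), a marker of dendritic cells and some macrophages, had 0, 0 and 1 counts in fibroblasts, 12, 20 and 13 in iOB and 119, 21 and 55 in calvarial-OB. The summed ratios were 62.4 for iOB (95% Clopper-Pearson interval 10.6 to 2518) and 182 for calvarial-OB (32.4 to 7242), intervals that cover counting error only. It was called in both comparisons (edgeR adjusted p = 0.0040 and 1.1e-04). It was lower in iOB than in calvarial-OB (-1.68 ± 0.58 on the log2 scale; edgeR adjusted p = 0.032, 0.012 to 0.19 over the alternatives), but without calvarial-OB replicate 1 this was -0.54 (adjusted p = 0.19). The call was also lost in the 2-group fit (0.051) and without iOB replicate 1 (0.090), 2 (0.072) or 3 (0.076).

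Itgam and Itgax are next to each other on chromosome 7, with Itgad beside them. The 250 bases before each start are shown because both genes rose strongly together, with matches to GAGGAA, the core bound by the macrophage factor PU.1 (Spi1), in capitals, searched on both strands (RefSeq, GRCm38.p6, 5′ to 3′).
Itgam (chr7:128062390-128062639, plus strand): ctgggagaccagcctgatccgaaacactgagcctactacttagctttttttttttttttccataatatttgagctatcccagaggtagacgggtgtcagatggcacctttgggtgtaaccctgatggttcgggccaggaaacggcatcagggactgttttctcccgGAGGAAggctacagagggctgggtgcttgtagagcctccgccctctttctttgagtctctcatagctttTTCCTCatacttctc
Itgax (chr7:128129300-128129549, plus strand): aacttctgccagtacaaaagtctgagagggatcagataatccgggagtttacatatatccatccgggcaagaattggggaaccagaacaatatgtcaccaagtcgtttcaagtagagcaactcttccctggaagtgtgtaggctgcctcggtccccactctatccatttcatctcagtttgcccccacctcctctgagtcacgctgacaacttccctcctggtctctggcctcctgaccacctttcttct
Itgam held 2 matches, beginning 84 and 15 bases before the start, and Itgax held 0, where 23.3% of all 32851 windows held at least 1. The 2 motifs did not overlap in these 4 windows, in which TGNGGT was found in Itga11 alone and GAGGAA in Itgam and once in Itga11. A RefSeq window was at hand for 23 of the 37 genes, with 2 windows each for Itga3, Itgb6 and Lamb3. Counting a gene when any of its windows matched, 13 held GAGGAA and 12 held TGNGGT. The shares over the whole RefSeq table, 23.3% and 40.1%, count windows and not genes, so the 2 are not compared. Spi1 was among the markers that rose, from 0.759 ± 0.442 CPM (mean ± SD, n = 3) in fibroblasts to 18.5 ± 5.85 CPM in iOB and 43.7 ± 17.0 CPM in calvarial-OB. Its part in the Itgam and Itgax values was not tested, and here too a match describes the letters and is not a site.

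Among the laminin alpha chains, Lama4 kept close to the fibroblast level, and the others differed by cell type. Lama4, the alpha chain of laminins around vessels, fat and muscle, was at 242, 249 and 218 CPM in fibroblasts, 208, 207 and 195 CPM in iOB and 202, 214 and 213 CPM in calvarial-OB. Both osteoblast groups were below every fibroblast library by a small margin, and neither difference was called (-0.21 ± 0.09 in iOB, edgeR adjusted p = 0.082; -0.17 ± 0.09 in calvarial-OB, edgeR adjusted p = 0.14). Lama2, the alpha chain of muscle and peripheral nerve, was at 36.4, 46.3 and 51.3 CPM in fibroblasts, 46.4, 49.3 and 44.8 CPM in iOB and 71.8, 53.9 and 59.4 CPM in calvarial-OB. It rose by 0.47 ± 0.14 in calvarial-OB (edgeR adjusted p = 0.015), though not when fibroblast replicate 1 was left out (0.071), and in iOB it stood at 0.07 ± 0.14 (edgeR adjusted p = 0.72). Between iOB and calvarial-OB it was -0.39 ± 0.14 (edgeR adjusted p = 0.038, 0.017 to 0.17 over the alternatives). That call was lost without any 1 iOB replicate (0.095, 0.066 and 0.12), without calvarial-OB replicate 1 (0.17) or 3 (0.072), with no filter (0.060), with DESeq2 (0.055) and when replicate number was a block (0.060).

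Lama5, the alpha chain of most adult epithelial and vessel basement membranes, was at 46.9, 61.5 and 63.5 CPM in fibroblasts, 40.4, 50.8 and 43.7 CPM in iOB and 12.7, 10.1 and 6.84 CPM in calvarial-OB. The iOB and fibroblast libraries overlapped, and the calvarial-OB libraries were far below both. Lama5 fell by 2.57 ± 0.21 in calvarial-OB (edgeR adjusted p = 9.5e-07), and its log2 fold change in iOB was -0.35 ± 0.19 (edgeR adjusted p = 0.16). Between the osteoblast groups the difference was 2.22 ± 0.21 (edgeR adjusted p = 6.6e-06). Lama3, the alpha chain of the epithelial anchoring laminin, moved the other way, at 1.04, 1.13 and 1.08 CPM in fibroblasts, 1.97, 4.01 and 4.91 CPM in iOB and 19.1, 11.4 and 8.72 CPM in calvarial-OB. It rose by 1.74 ± 0.44 in iOB (edgeR adjusted p = 0.0070) and by 3.57 ± 0.39 in calvarial-OB (edgeR adjusted p = 1.1e-05), and was lower in iOB than in calvarial-OB (-1.83 ± 0.34 on the log2 scale; edgeR adjusted p = 9.8e-04). Lama1, the alpha chain of embryonic basement membranes, was at 5.75, 5.10 and 5.48 CPM in fibroblasts, 0.756, 0.803 and 0.818 CPM in iOB and 1.45, 6.25 and 1.56 CPM in calvarial-OB. It fell by 2.76 ± 0.56 in iOB (edgeR adjusted p = 0.0019).

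In calvarial-OB, replicate 2 stood with the fibroblasts for Lama1 while the other 2 were low. The log2 fold change there was -0.88 ± 0.44 (edgeR adjusted p = 0.11, 2.3e-04 to 0.34 over the alternatives), and -1.82 without that replicate (adjusted p = 2.3e-04); with the replicate number as a block it was -1.05 (0.048). Between iOB and calvarial-OB, Lama1 was called (-1.88 ± 0.60, edgeR adjusted p = 0.021), but without calvarial-OB replicate 2 it was -0.91 (0.056). That call was also lost without iOB replicate 1 (0.059), 2 (0.060) or 3 (0.052).

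**Figure D3:**
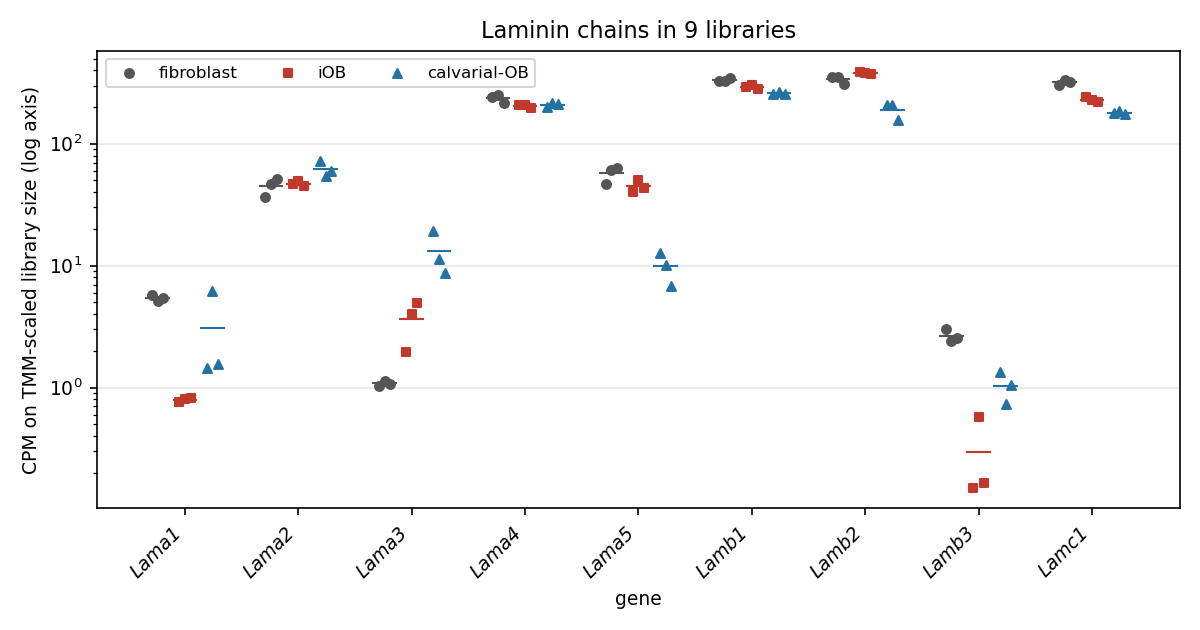
Levels of 9 laminin chain genes in each library, as CPM on a log axis; points are libraries, short lines group means, colours and shapes the 3 groups. Lama5 is lowest in calvarial-OB, Lama3 is highest there, and Lama1 and Lamb3 are lowest in iOB; Lama4, Lamb1, Lamb2 and Lamc1 differ by at most 2.0-fold between group means.

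The common beta and gamma chains Lamb1, Lamb2 and Lamc1 were lower in calvarial-OB than in fibroblasts, as was Lamb3. Lamb1, the beta chain of most embryonic and mesenchymal laminins, was at 327, 329 and 347 CPM in fibroblasts, 294, 303 and 279 CPM in iOB and 255, 266 and 257 CPM in calvarial-OB. It fell by 0.37 ± 0.09 in calvarial-OB (edgeR adjusted p = 0.0038) and was not called in iOB (-0.19 ± 0.09, edgeR adjusted p = 0.094). Lamb2, the beta chain of nerve-muscle contacts and kidney, was at 354, 353 and 307 CPM in fibroblasts, 391, 381 and 371 CPM in iOB and 208, 208 and 156 CPM in calvarial-OB. It fell by 0.83 ± 0.12 in calvarial-OB (edgeR adjusted p = 1.2e-04), was not called in iOB (0.17 ± 0.12, edgeR adjusted p = 0.27; called in the 2-group fit, 0.036), and differed by 1.00 ± 0.12 between the osteoblast groups (edgeR adjusted p = 4.8e-05).

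Lamc1, the gamma chain of nearly all laminins, was at 303, 331 and 321 CPM in fibroblasts, 240, 229 and 222 CPM in iOB and 180, 184 and 174 CPM in calvarial-OB. The 3 groups fell in that order with no overlap. Lamc1 fell by 0.47 ± 0.09 in iOB (edgeR adjusted p = 0.0012) and by 0.83 ± 0.09 in calvarial-OB (edgeR adjusted p = 1.0e-05), and iOB exceeded calvarial-OB by 0.36 ± 0.09 (edgeR adjusted p = 0.0058). Lamb3, which joins Lama3 in the epithelial anchoring laminin, was at 3.01, 2.41 and 2.57 CPM in fibroblasts, 0.151, 0.573 and 0.164 CPM in iOB (1, 5 and 1 counts) and 1.33, 0.735 and 1.04 CPM in calvarial-OB. It fell by 3.00 ± 0.46 in iOB (edgeR adjusted p = 2.6e-04; 3.98 without iOB replicate 2) and by 1.36 ± 0.35 in calvarial-OB (edgeR adjusted p = 0.0059). Lama3 and Lamb3 did not move together: Lama3 rose and Lamb3 fell in both osteoblast groups.

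Between the osteoblast groups Lamb3 was lower in iOB (-1.65 ± 0.52 on the log2 scale; edgeR adjusted p = 0.021, 0.0097 to 0.082 over the alternatives). The call was lost with DESeq2 (0.060) and without iOB replicate 1 (0.082) or 3 (0.078) or calvarial-OB replicate 1 (0.052), and without iOB replicate 2 the value was -2.62.

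The 4 genes that did not pass the filter were close to the limit of detection. Itgad had 0 to 16 counts per library, Itgae 2 to 14, Lamc3 2 to 9 and Itgb6 0 to 2. Itgb6, the epithelial beta chain that activates TGF-beta, had 0 of 20121856 counts in iOB, which allows up to 0.149 CPM at 3 counts over the group. Differences in these 4 genes were not tested. Itgad had 5, 0 and 6 counts in fibroblasts, 4, 3 and 0 in iOB and 12, 16 and 11 in calvarial-OB, whose libraries did not overlap with the others. Lamc3 had 6, 9 and 7 counts in fibroblasts, 2 in each iOB library and 7, 8 and 9 in calvarial-OB, so that iOB lay below both other groups.

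Setting iOB directly beside calvarial-OB, 11 of the 33 tested genes were higher in iOB and 8 lower, where 24.7% of all tested genes were higher, 24.1% lower and 48.8% called either way. The share of members called was 57.6%, and their median log2 fold change was 0.25, beside -0.03 over all tested genes. Libraries did not overlap for 22 of the 33 (55.5% of all tested genes). Differences towards iOB above 2 on the log2 scale included those of Itga3, Itgb7, Itga11 and Lama5, and the largest towards calvarial-OB were Lama1, Lama3, Itgax, Lamb3 and Itga2. The count of lower genes was the less stable one, at 3 without iOB replicate 1 or 3 or calvarial-OB replicate 1, 4 without iOB replicate 2 and 4 with DESeq2.

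**Figure D4:**
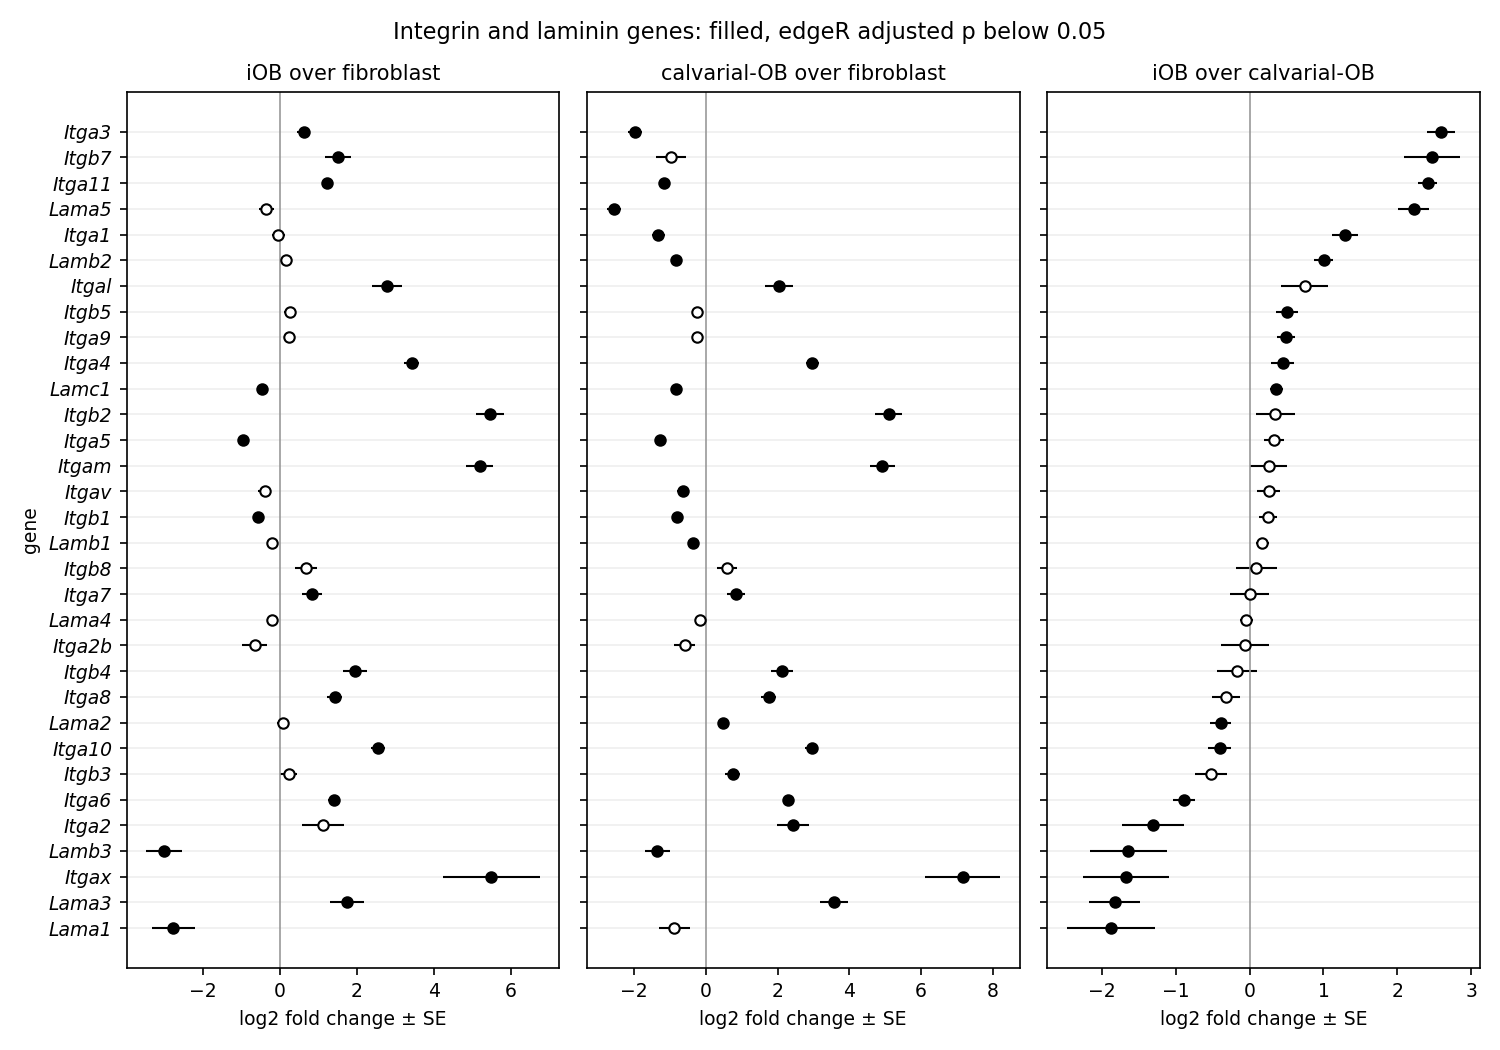
Log2 fold changes ± SE of 32 tested genes in the 3 comparisons, ordered by the difference between iOB and calvarial-OB; filled points have an edgeR adjusted p below 0.05. Itga11, Itga3 and Itgb7 lie on the right in iOB and on the left in calvarial-OB, while Itgam, Itgb2, Itgax, Itga4 and Itga10 lie on the right in both.

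The genes around integrins and laminins were read from 3 lists, beside the 43.3% of all tested genes called in iOB and 55.8% in calvarial-OB. Of 28 tested adaptors and kinases, 6 were higher and 11 lower in iOB (median log2 fold change -0.10, -0.04 over all genes), and 6 higher and 15 lower in calvarial-OB (median -0.41, 0.02 over all genes), or 60.7% and 75% called. Filamin A (Flna), which ties integrins to actin, fell by 0.59 ± 0.13 in iOB and by 1.21 ± 0.13 in calvarial-OB, and talin 1 (Tln1), which activates them, fell by 0.28 ± 0.09 and 0.63 ± 0.10. The adaptors that rose included the blood-cell kindlin Fermt3 (4.03 ± 0.36 in iOB and 4.88 ± 0.36 in calvarial-OB) and the blood-cell parvin Parvg (3.44 ± 0.72 and 6.35 ± 0.56). The others called higher were Parvb in both groups, Ptk2b, Tns1 and Cd151 in iOB, and Itgb1bp1, Dab2 and Cd47 in calvarial-OB. Of 23 tested basement membrane partners, 12 were higher and 5 lower in iOB (median 0.45), and 7 higher and 8 lower in calvarial-OB (median 0.16), or 73.9% and 65.2% called. The type IV collagen genes Col4a1 and Col4a2 fell by 0.92 ± 0.13 and 0.74 ± 0.15 in iOB and by 0.85 ± 0.13 and 1.02 ± 0.15 in calvarial-OB, and perlecan (Hspg2) fell by 0.95 ± 0.16 and 1.78 ± 0.16. Of the other type IV collagen genes, Col4a4 and Col4a6 rose in iOB (5.14 ± 0.70 and 1.59 ± 0.28), from 0.126 and 3.99 CPM in fibroblasts. Col4a5 was not called there, and Col4a3 was not tested. In calvarial-OB Col4a5 fell by 1.32 ± 0.17, and Col4a4 and Col4a6 were not called. Among the partners called higher, Col18a1 rose by 0.91 ± 0.21 in iOB and by 1.72 ± 0.21 in calvarial-OB. The nidogen genes Nid1 and Nid2, which bridge laminin and collagen IV, were called in neither. Of 21 tested integrin ligands, 9 were higher and 7 lower in iOB (median 0.28), and 9 higher and 8 lower in calvarial-OB (median 0.15), or 76.2% and 81% called. Thrombospondin 1 (Thbs1) fell by 1.13 ± 0.12 and 2.76 ± 0.13, and the collagen ligand gene Col1a2 rose by 0.68 ± 0.14 and 1.65 ± 0.14.

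The authors' deposited tables set unsorted iOB and iOB GFP+ each against fibroblasts. They share the same kind of control, and their values are given side by side without a test between them. In the authors' deposited table for iOB, whose fold changes are moderated towards 0, 14 of the 37 genes were higher and 5 lower at an adjusted p below 0.05, where 19.9% of all genes with an adjusted p were higher, 15% lower and 34.9% called either way. In the authors' deposited table for iOB GFP+, 9 were higher, 11 lower and 12 not called, where 23.7% were higher, 21.7% lower and 45.5% called either way, and 5 had no adjusted p.

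Itga10 stood highest of the 37 genes in the sorted cells. The authors' deposited table gives it a log2 fold change of 5.80 ± 0.31 (SE; adjusted p = 1.7e-74) in iOB GFP+, beside 2.52 ± 0.20 in unsorted iOB. Itga11 was at 0.60 ± 0.10 in iOB GFP+ and 1.25 ± 0.13 in iOB, and Itga1 at -1.70 ± 0.41 and -0.02 ± 0.19, in the authors' deposited tables. Itgb3 was at 1.26 ± 0.32 in iOB GFP+ (adjusted p = 3.1e-04) and at 0.24 ± 0.23 in iOB (adjusted p = 0.46) in the authors' deposited tables. The fibronectin receptor chain Itga5 was at -1.98 ± 0.21 and -0.91 ± 0.14, and Itgb1 at -0.81 ± 0.09 and -0.53 ± 0.12, in iOB GFP+ and iOB of the authors' deposited tables. Itga4 was at 3.10 ± 0.39 and 3.35 ± 0.25, and Itga7 at 1.47 ± 0.23 and 0.83 ± 0.28, called in both of the authors' deposited tables.

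**Figure D5:**
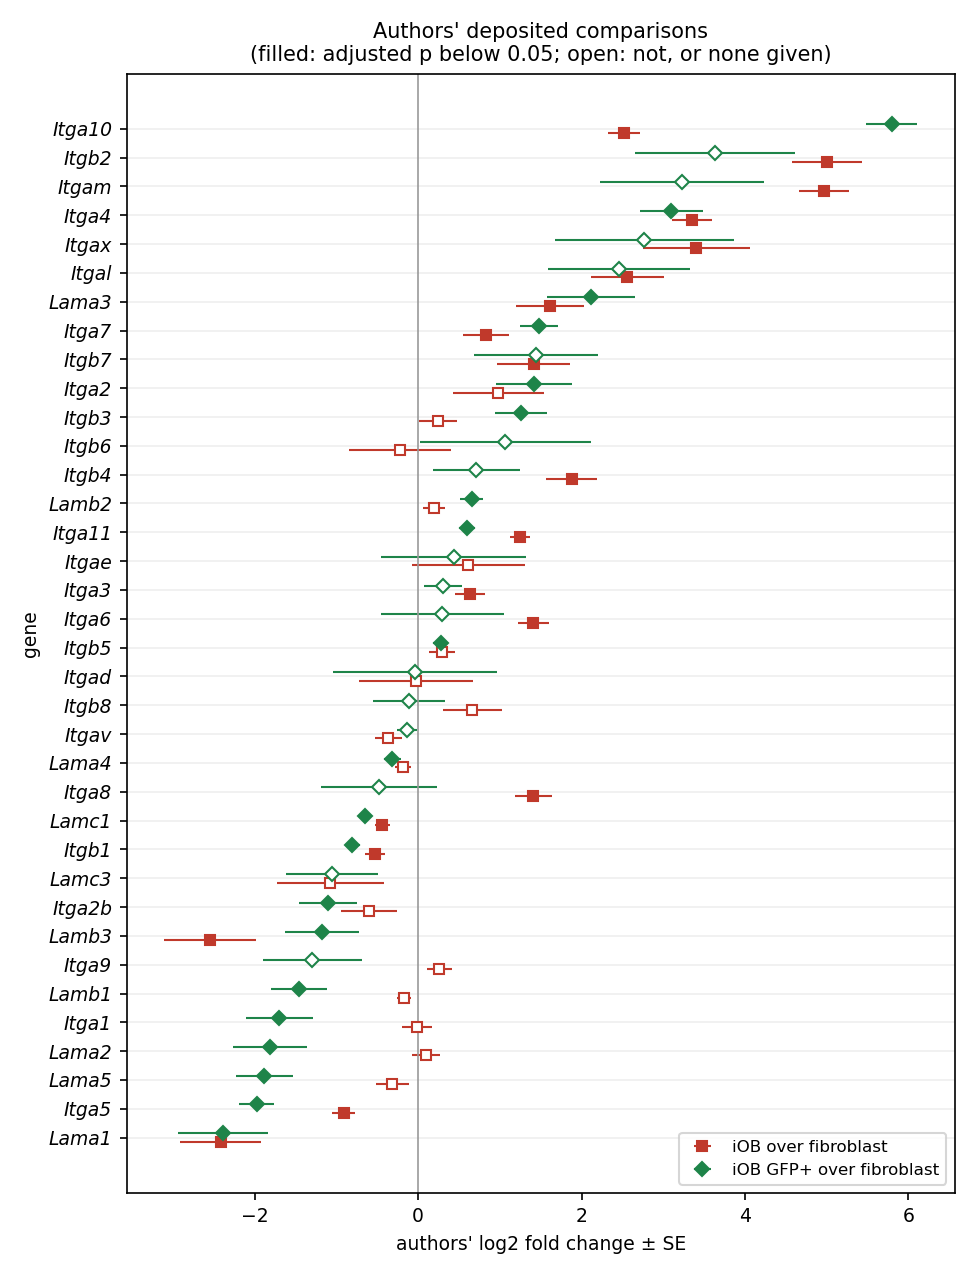
The authors' log2 fold changes ± SE over fibroblasts for 36 of the 37 genes in unsorted iOB (squares) and iOB GFP+ (diamonds); filled symbols have an adjusted p below 0.05 in the authors' deposited tables, open symbols do not or have none. Itga10 is at 5.80 in iOB GFP+ beside 2.52 in iOB, and Lama5, Lama2, Itga1 and Lamb1 lie between -1.88 and -1.46 in iOB GFP+ beside -0.32 to 0.09 in iOB.

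Of the laminin chains, 7 were lower in the sorted cells by the authors' deposited table: Lama1 (-2.39 ± 0.55), Lama5 (-1.88 ± 0.35), Lama2 (-1.81 ± 0.45), Lamb1 (-1.46 ± 0.35), Lamb3 (-1.18 ± 0.45), Lamc1 (-0.65 ± 0.06) and Lama4 (-0.32 ± 0.10). In unsorted iOB the log2 fold changes were Lama5 -0.32 ± 0.20, Lama2 0.09 ± 0.17 and Lamb1 -0.17 ± 0.09, none of them called by the authors' deposited table. Lama3 (2.12 ± 0.54) and Lamb2 (0.66 ± 0.14) were higher in iOB GFP+, beside 1.61 ± 0.41 and 0.19 ± 0.13 in iOB, in the authors' deposited tables. Itga8 had log2 fold changes of -0.48 ± 0.71 in iOB GFP+ and 1.41 ± 0.22 in iOB, and Itgb4 of 0.71 ± 0.53 and 1.88 ± 0.31, called in iOB and not in iOB GFP+ by the authors' deposited tables; the difference was not tested.

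For 4 of the 7 leukocyte integrin genes the authors' deposited table for iOB GFP+ gives fold changes but no p-value. Itgam was at 3.23 ± 1.00, Itgb2 at 3.63 ± 0.98, Itgal at 2.46 ± 0.86 and Itgax at 2.77 ± 1.10, beside 4.97 ± 0.31, 5.00 ± 0.43, 2.56 ± 0.44 and 3.40 ± 0.65 in unsorted iOB, in the authors' deposited tables. In the authors' deposited table these 4 and Itga6 (0.29 ± 0.75) lacked a p-value, as did 13 of 14 macrophage markers, against 2.13% of all genes in that table and 0 of these genes in the table for unsorted iOB. Over the 14 macrophage markers the median log2 fold change was 3.38 in iOB GFP+ beside 4.89 in iOB, in the authors' deposited tables. The 1 marker with a p-value, Fcer1g, was called higher in iOB GFP+ by the authors' deposited table (4.84 ± 0.62, adjusted p = 9.6e-14). Of the other leukocyte chains, Itgb7 (1.44 ± 0.76, adjusted p = 0.11), Itgae (0.43 ± 0.89, adjusted p = 0.73) and Itgad (-0.04 ± 1.01, adjusted p = 0.98) were not called in iOB GFP+ by the authors' deposited table. DESeq2 withholds the p-value of a gene with counts when the count of 1 library lies far from the fitted values; the libraries behind this table were not analysed here. The authors' base mean for Lamc3 in that table was 182.9, with a log2 fold change of -1.06 ± 0.57, whereas the 3 fibroblast libraries of the count table held 6, 9 and 7 counts. Which libraries entered that base mean is not stated, so base means are not read as levels.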

How the data were processed

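RNA was measured in 9 libraries, 3 each of fibroblast, iOB and calvarial-OB. The authors deposited counts per gene symbol; The submitters' processing notes list the mm9 build, R 3.2.2, DESeq2, Bowtie2 and STAR 2.4.2a without roles. How reads were assigned to genes, with which annotation and whether by strand, is not given in the sources used here. The OB columns were read as the calvarial-OB samples. The authors' deposited comparison tables hold, per the file headers, a test statistic (a score), p-values, a log2 fold change and its SE, and the mean normalized signal of each gene (base mean). In the iOB table, base means equalled those of the 9 libraries (median ratio 1), and a DESeq2 refit with a prior on fold changes came within a median of 0.000338 of its log2 fold changes, so these are moderated. Methylation windows carry no gene names and were not used here.

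All genes were fitted with edgeR 4.0.16 (R 4.3.3; quasi-likelihood test, TMM, filterByExpr, group as the only term, 9 libraries together, biological coefficient of variation 14.8%), and p-values were Benjamini-Hochberg adjusted over 13438 genes. The SE is the absolute log2 fold change over the square root of the F statistic. The code was tested on simulated data. Alternatives were RLE and upper-quartile normalization, no filter, DESeq2 1.42.0, a fit of 2 groups, a replicate block and leaving out each library. Genes with a group mean of at least 10 CPM called in at least 1 comparison, and 8 dimer partners, were to be described in full; others were named after their values were seen. The values of 1 tested gene are not reported here, though the counts include it. Members and lists were chosen with earlier results of these data known. Reads carry no molecular identifiers, so intervals and floors cover counting error only. Promoter windows are from RefSeq (GRCm38.p6), a build other than mm9.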

Additional observations from a re-analysis of the deposited data

How the results depend on the processing

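Across 12 alternatives per comparison, no called integrin or laminin value reversed its direction. Of the single-gene values, 385 of 395 kept their side of the threshold for iOB against fibroblast, 385 of 395 for calvarial-OB against fibroblast and 342 of 395 for iOB against calvarial-OB. Genes called numbered 18 to 24, 25 to 29 and 13 to 19 in these comparisons over all alternatives. The count lower in iOB than in calvarial-OB moved from 8 to 4 with DESeq2 and to 3 to 7 when 1 replicate was left out. With the replicate number as a block the counts were 19, 27 and 19, and 5614, 7364 and 6303 over all genes. Same-numbered libraries deviated from their group means with correlations of -0.165 to 0.159, and 3 of 9 libraries correlated best with their own number. The labels do not say whether same-numbered libraries share more than a number, and with 3 libraries per group these correlations cannot decide it. Leaving out 1 library left 4717 to 5125, 6580 to 7825 and 5435 to 7205 genes called in all. Depth limits Itgad, Itgae, Itgb6, Lamc3 and, in fibroblasts, Itgax.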

Other observations

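Of the leukocyte integrins, 4 genes were also set against the macrophage markers within each library, which needs no scaling between libraries. Per 100 CPM of the 14 summed macrophage markers, Itgam stood at 2.09, 2.24 and 2.24 CPM in iOB and 1.24, 1.20 and 1.37 CPM in calvarial-OB. Itgb2 stood at 2.49, 2.51 and 2.34 CPM in iOB and 1.32, 1.31 and 1.33 CPM in calvarial-OB, a mean of 2.45 ± 0.09 against 1.32 ± 0.01 (SD, n = 3). Itgal had a mean of 0.147 ± 0.049 in iOB and 0.0584 ± 0.0063 in calvarial-OB. All 3 ratios were higher in every iOB library than in any calvarial-OB library. Calvarial-OB replicate 1, with the most macrophage marker RNA, had 1.83 times the sum of replicate 2. The sum itself was 2213 to 3574 CPM in iOB and 3385 to 6201 CPM in calvarial-OB, and 8 of its 14 markers were called lower in iOB. A gene at a similar level in both groups therefore tends to a higher ratio in iOB. The share of all genes with such a ratio was not computed. In fibroblasts, where the sum is small, the ratios were 2.82 to 3.33 for Itgam, 1.79 to 3.40 for Itgb2 and 0.807 to 1.10 for Itgal, above both osteoblast groups for Itgam and Itgal and overlapping iOB for Itgb2. Itgax per marker overlapped between the groups (0.0595 to 0.0820 and 0.0761 to 0.232). A two-sided exact permutation test over libraries gave p = 0.1 for Itgam, Itgb2 and Itgal, the smallest this design allows, and 0.2 for Itgax (0.13 and 0.2 after Benjamini-Hochberg adjustment over these 4 relations). With 3 libraries per group the test cannot reach 0.05, so nothing is concluded from it. These ratios were chosen after the data were seen, and Lyz2 alone made up 61.7% to 62.3% of the sum in iOB and 42.2% to 48.1% in calvarial-OB.

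Neighbouring genes did not always change alike. Itga1 and Itga2 are neighbours on chromosome 13, and in calvarial-OB the first fell by 1.33 and the second rose by 2.43. Itga2 was low, with 14 counts summed over the 3 fibroblast libraries. Itgam and Itgax, neighbours on chromosome 7, both rose. Neighbouring genes outside the integrins and laminins were not examined.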
